A study of Mus musculus with 8 samples.

Results

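The genes of the 4 reprogramming factors Oct4 (Pou5f1), Nanog, Sox2 and Klf4 were followed in genome-wide maps of 5-hydroxymethylcytosine (5hmC), the oxidised form of 5-methylcytosine. The members were the peaks overlapping 4 fixed windows in coordinates of the mouse assembly mm9, and 137 of the 684512 peaks in 8 lists did so. Of these, 70 lay at Pou5f1, 23 at Nanog, 4 at Sox2 and 40 at Klf4. The libraries came from reprogramming intermediates of the OySyNyK method (D1, D3 and D5), from intermediates of the OSNK method (D1, D3 and D5), from mouse iPSCs and from mouse embryonic fibroblasts (MEF), with 1 library in each group, and D is read as day. OSNK is known as the factor set Oct4, Sox2, Nanog and Klf4, and OySyNyK as this set with Oct4, Sox2 and Nanog joined to a YAP activation domain. The iPSC sample is titled with the OySyNyK factors, and the growth protocol puts iPSCs on mitomycin C-treated MEF feeder cells. How much feeder DNA entered that library was not measured.

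The growth protocol names OG2-MEFs as the fibroblasts. OG2 mice are known for a green fluorescent protein transgene built on a stretch of Pou5f1 genomic sequence. Such copies, the introduced factor cDNA and the endogenous gene cannot be told apart in a peak list, so the windows are called loci here without claiming that their signal is endogenous. Ages, passages and clone numbers are not used here, and 5hmC peaks hold no expression with which to check the cell type labels.

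TET enzymes make 5hmC from 5-methylcytosine, mostly at CpG sites, and the mark is known from gene bodies, enhancers and the edges of unmethylated promoters. Pou5f1 and Nanog are silent in fibroblasts, with methylated promoters, and their demethylation is a classical sign of reprogramming. Sox2, a partner of Oct4 on DNA, and Klf4, a zinc finger factor that fibroblasts also express, have CpG-rich promoters. The promoters are shown for this contrast in CpG content, with every CpG in capitals. They run from 250 bases before to 50 bases after the annotated start and are RefSeq sequences of assembly GRCm38.p6, which is not the assembly of the peak lists. Pou5f1 and Nanog each had 2 promoter entries, and the one nearest the annotated gene start is shown and counted.

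Pou5f1 promoter, GRCm38.p6, chr17:35505782-35506081, plus strand: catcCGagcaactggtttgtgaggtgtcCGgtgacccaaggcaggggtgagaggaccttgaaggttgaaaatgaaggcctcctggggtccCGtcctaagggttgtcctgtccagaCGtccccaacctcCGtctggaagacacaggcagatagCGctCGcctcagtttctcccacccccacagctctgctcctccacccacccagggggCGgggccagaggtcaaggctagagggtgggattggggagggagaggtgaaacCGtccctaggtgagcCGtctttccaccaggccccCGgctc
Nanog promoter, GRCm38.p6, chr6:122707239-122707538, plus strand: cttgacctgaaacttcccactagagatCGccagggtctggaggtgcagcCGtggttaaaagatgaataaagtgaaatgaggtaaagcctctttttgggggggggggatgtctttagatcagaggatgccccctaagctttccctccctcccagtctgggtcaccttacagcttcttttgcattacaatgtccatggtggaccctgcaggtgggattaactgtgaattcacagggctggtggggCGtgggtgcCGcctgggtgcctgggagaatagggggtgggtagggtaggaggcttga
Sox2 promoter, GRCm38.p6, chr3:34649745-34650044, plus strand: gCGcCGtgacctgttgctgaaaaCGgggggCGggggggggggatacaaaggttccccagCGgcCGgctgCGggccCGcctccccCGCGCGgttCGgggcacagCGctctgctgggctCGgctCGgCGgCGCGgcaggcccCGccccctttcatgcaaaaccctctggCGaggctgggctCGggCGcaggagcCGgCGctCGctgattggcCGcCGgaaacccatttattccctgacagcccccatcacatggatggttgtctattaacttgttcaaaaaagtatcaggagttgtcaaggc
Klf4 promoter, GRCm38.p6, chr4:55532426-55532725, minus strand: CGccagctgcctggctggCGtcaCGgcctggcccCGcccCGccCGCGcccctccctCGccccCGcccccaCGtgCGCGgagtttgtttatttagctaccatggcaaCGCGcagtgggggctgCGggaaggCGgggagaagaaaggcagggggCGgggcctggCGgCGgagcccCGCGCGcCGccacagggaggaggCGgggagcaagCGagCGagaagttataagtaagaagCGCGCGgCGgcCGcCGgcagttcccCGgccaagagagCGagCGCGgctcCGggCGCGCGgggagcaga

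The Klf4 promoter held 40 CpGs and the Sox2 promoter 27, against 11 for Pou5f1 and 4 for Nanog. Among all 32851 promoter sequences of the table the median was 7. At least as many CpGs as in Klf4 were found in 3.91% of them, as in Sox2 in 15.5%, as in Pou5f1 in 41.4% and as in Nanog in 68.6%. The letters ATGCAAA, part of the octamer motif Oct4 is known to bind, occurred on either strand in the Nanog and Sox2 sequences and in neither of the others. They occurred in 4.63% of all promoters.

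Each window left a central segment of 5, 8, 3 or 6 kb for Pou5f1, Nanog, Sox2 and Klf4 after 25 kb was taken from both sides. The RefSeq gene lengths were 4.75, 7.14, 2.47 and 5.34 kb in the same order. The gene was taken to lie in the central segment, so distances from its start are good to about 1 kb. Upstream and downstream follow the strand of the gene, which is plus except for Klf4.

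The loci differed widely in their listed 5hmC peaks. Pou5f1 held broad and very high-scoring peaks in all 8 libraries, Nanog and Klf4 held scattered peaks, and Sox2 was almost without peaks. Relative to the whole library, cover was at most 2.25 times as high at Nanog and between 0.741 and 2.85 times at Klf4. Lists differed in length, with 54938 peaks in iPSC and between 65776 (MEF) and 116302 (OSNK D1) in the others. Cover is therefore also given as a ratio to the share of all sequence that the same library covered, which lay between 1.56% and 3.72%. Sequencing depth was unknown, and with 1 library in each group no single stage can be tested. Pairing the methods by day leaves 3 differences, over which an exact sign-flip test cannot give a two-sided p below 0.25. A score is the authors' value for a peak, and the lowest score in the lists was 50.

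At Pou5f1, which encodes the POU factor Oct4, peaks covered 30.1%, 35.2% and 41.2% of the window on D1, D3 and D5 under OySyNyK and 23.9%, 32.7% and 36.0% on D1, D3 and D5 under OSNK. They covered 38.0% in iPSC and 27.0% in MEF. Cover went up with each day in both methods, and MEF lay above OSNK D1 only. The rise did not hold with peaks of 500 bp, with 10.9%, 7.27% and 10.00% over the days of OySyNyK and 8.18%, 5.45% and 8.18% over those of OSNK, and with 10 kb on each side of the central segment OSNK had 72.0% at D3 and 71.0% at D5. OySyNyK lay above OSNK on all 3 days, by 6.17, 2.48 and 5.18 percentage points (exact two-sided sign-flip test, p = 0.25, the smallest it can give), and below it at D3 with 10 kb on each side (-8.94). iPSC minus MEF was 11.0 percentage points (95% Newcombe interval -1.38 to 22.9 over bins of 500 bp, counting error only). Relative to the whole library, cover was 10.3, 12.5 and 18.9 times as high over the days of OySyNyK, 6.87, 8.79 and 13.5 times over those of OSNK, 24.4 times in iPSC and 11.3 times in MEF. Relative to chromosome 17 alone, it was between 5.56 (OSNK D1) and 15.3 (iPSC) times as high. Of 47943 genome tiles of 55 kb, at most 1.24% were covered to this extent in any library, and 0.0313% in iPSC.

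**Figure D1:**
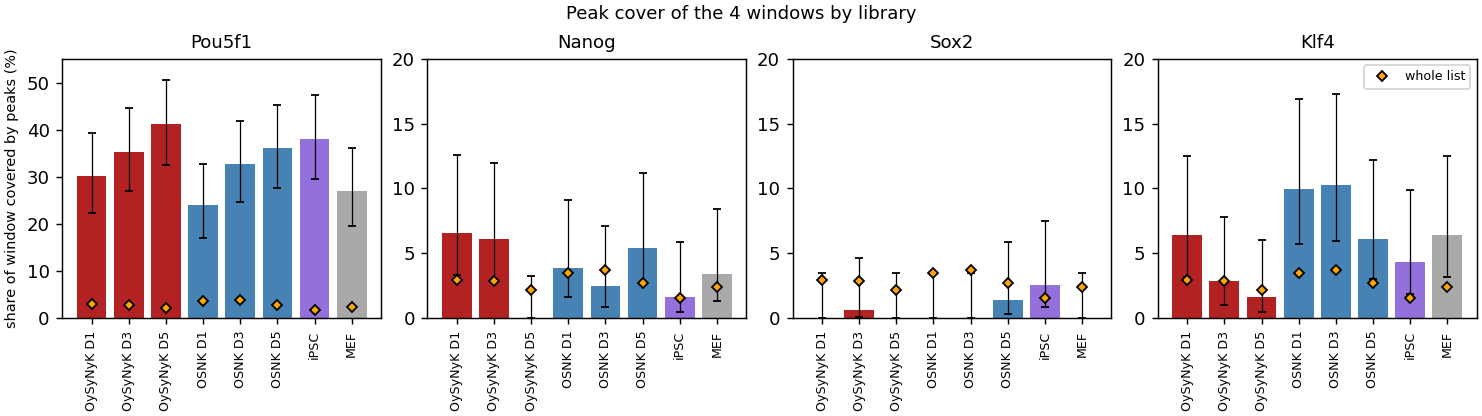
Share of each window covered by peaks (%, bars) in each of the 8 libraries, with 95% Wilson intervals over bins of 500 bp that cover counting error only, and the share of all sequence covered in the same library (diamonds). The vertical axis of Pou5f1 reaches 55% and the others 20%; Pou5f1 bars lie between 23.9% and 41.2%, and no other bar exceeds 10.3%.

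Most of this cover came from 1 block round the gene. It ran from position 35634593 to 35652342 of chromosome 17, from 8.41 kb before to 4.34 kb after the central segment, and was 17.8 kb wide. The block spans 2 merged peak regions held by all 8 libraries, and 76 bases between them were in no list. Peaks covered 79.8%, 88.8% and 93.7% of the block on D1, D3 and D5 under OySyNyK, 67.9%, 92.9% and 94.9% on D1, D3 and D5 under OSNK, 83.8% in iPSC and 78.2% in MEF. All 8 libraries covered the same 49.0% of its bases. The block made up between 71.2% (iPSC) and 93.5% (MEF) of the covered bases of the window.

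The last covered base of the block lay within 300 bases in the 8 libraries, between 35652042 (OSNK D1) and 35652342 (OSNK D5). With peaks of score 100 or more, OSNK D1 ended at 35651059, the other 7 libraries ended at 35652119 or later, and the spread was 1283 bases. Over the 2447 regions of the genome with exactly 1 peak in every library, the last bases spread over a median of 392 bases (quartiles 260 and 698), and 34.6% of them spread over no more than 300 bases. The first covered bases spread over 1802 bases, from 35634593 in iPSC to 35636395 in OSNK D1.

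Scores in the block were among the highest anywhere. The highest-scoring peak had a score of 2230 at OySyNyK D1, 3100 at D3 and D5 of OySyNyK and on D1, D3 and D5 under OSNK, 3100 in iPSC and 1330 in MEF. Within the whole list of its library that peak ranked 1 at OySyNyK D3 and D5, OSNK D1 and D5 and in iPSC, 2 at OSNK D3, 5 at OySyNyK D1 and 188 in MEF. The score of 3100 is shared by up to 4 peaks of a list, so it gives no order among the libraries that reached it. In MEF the highest peak lay downstream of the gene, and the broad peak over the gene, 8441 bp wide, scored 713.99. At D3 and D5 of both methods a single peak of 8170 to 8316 bp over the gene and its upstream side scored 3100.

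**Figure D2:**
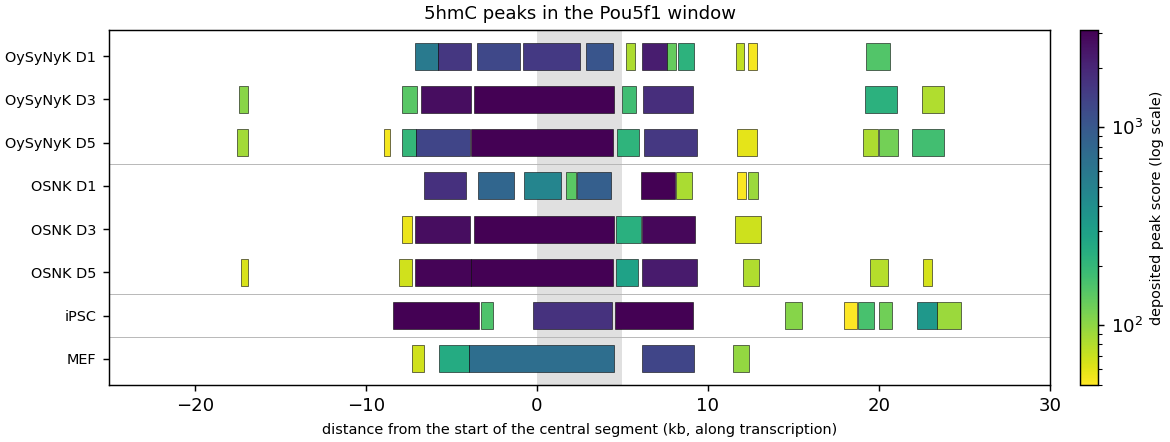
Peaks of the Pou5f1 window in each library (rows), placed by distance in kb from the start of the central segment (grey), with the deposited score as colour on a log scale. The block from 8.41 kb before to 4.34 kb after the segment appears in every row, and the iPSC row has a break of 2.32 kb before the gene. The rightmost region has peaks in iPSC, at OySyNyK D3 and D5 and at OSNK D5.

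Within the block, the stretch just before the gene set iPSC apart. The iPSC list had no peak from 35640433 to 35642751, a break of 2.32 kb that ended 0.248 kb before the central segment, known to about 1 kb. The same bases were covered to 92.2% at OySyNyK D1 and 73.9% at OSNK D1, and to 100% at D3 and D5 of both methods and in MEF. The iPSC peak upstream of the break scored 157.20 and the one over the gene 1733.54. At D1 both methods had a shorter break in this place, of 181 bp with OySyNyK and 606 bp with OSNK. The break therefore lies at the Pou5f1 promoter or directly upstream of it, as near as the windows can tell.

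The 3' side of the gene differed as well. MEF had no peak over 1660 bases from 35647503 to 35649162, and OSNK D1 none over 1786 bases from 35647326 to 35649111. OySyNyK D1 already held a peak of score 82.48 there, and D3 and D5 of both methods held one of 176.32 to 289.65. In iPSC a single peak of score 3100 began at 35647579 and ran across the rest of this stretch. The central segment itself was covered to 82.4%, 90.4% and 95.9% over the days of OySyNyK, 78.1%, 97.4% and 97.4% over those of OSNK, 96.0% in iPSC and 90.0% in MEF. Introduced Pou5f1 cDNA could add reads over exons in the intermediates, and its part was not tested. Where cells carried the OG2 transgene, its Pou5f1 genomic sequence could add reads outside exons too, also in MEF. That part was not tested either.

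Outside the block, most peaks lay downstream of Pou5f1, on the side of the neighbouring gene Tcf19. Only the order of the genes was read, so downstream peaks, in the block or past it, may lie over Tcf19. The regions farthest downstream had peaks in intermediates and iPSC and none in MEF. Cover outside the block was 6.44%, 9.66% and 16.1% on D1, D3 and D5 under OySyNyK, 3.01%, 4.02% and 7.93% on D1, D3 and D5 under OSNK, 16.2% in iPSC and 2.60% in MEF. iPSC minus MEF was 13.6 percentage points here (95% Newcombe interval 6.01 to 21.8). This rests on 6 iPSC peaks and 1 MEF peak, and the interval is too narrow, since bins under 1 peak are not independent. The block was left out after the data were seen and was drawn from the peaks themselves. The interval of the whole window included 0, and with 10 kb on each side the difference was 2.13 (-16.5 to 20.6). Relative to the whole library the cover outside the block was 10.4 times as high in iPSC and 1.09 times in MEF.

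A region 18.8 to 21.1 kb from the start of the central segment, at 35661762 to 35664106, had peaks on all 3 days of OySyNyK, with highest scores of 153.26, 222.21 and 120.86. With OSNK it had a peak at D5 only, of score 79.00. It scored 166.34 in iPSC and had no peak in MEF. The next region, at 35664943 to 35667785, had its first peak at D3 with OySyNyK (81.31) and at D5 with OSNK (64.76), and reached 175.79 at OySyNyK D5 and 343.76 in iPSC. Peaks at 35654458 to 35656096 went the other way. They scored 96.98 in MEF and between 59.64 and 92.62 in 5 intermediates, and none was listed in iPSC or at OySyNyK D3. A region 17.5 kb upstream, at 35625479 to 35626149, was held by OySyNyK D3 and D5 and OSNK D5 alone. iPSC alone had a peak at 35657490 to 35658495, of score 106.47.

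At Nanog, the homeodomain factor whose gene lies beside Dppa3 and Slc2a3, cover was lower than at Pou5f1 in every library. Peaks covered 6.58%, 6.10% and 0% of the window on D1, D3 and D5 under OySyNyK, 3.87%, 2.43% and 5.43% on D1, D3 and D5 under OSNK, 1.59% in iPSC and 3.39% in MEF. OySyNyK D5 had no peak in the window, and the median genome tile of 55 kb was covered to 0% in that library as well. Chromosome 6 as a whole was covered to 1.27% at OySyNyK D5 and 0.722% in iPSC, against 1.96% at OSNK D5 and 1.88% in MEF. Relative to that chromosome, the window had 2.85, 3.07 and 0 times the cover on D1, D3 and D5 under OySyNyK. It had 1.30, 0.845 and 2.77 times the cover over the days of OSNK, 2.21 times in iPSC and 1.80 times in MEF. Where the window held a peak, between 15.1% (OySyNyK D1) and 34.9% (OSNK D3) of genome tiles were covered at least as much.

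A region of 808 bp upstream of Nanog had a peak in 5 of the 6 intermediates and in neither end state. It lay 5.2 to 4.4 kb before the central segment, at 122651790 to 122652597 of chromosome 6, a part of the locus in which an upstream Nanog enhancer bound by Oct4 and Sox2 is known. Its peak scored 80.99 and 65.98 at D1 and D3 of OySyNyK and 71.40, 98.19 and 116.86 on D1, D3 and D5 under OSNK. No peak was listed there at OySyNyK D5, in iPSC or in MEF. The same 5 libraries held a peak at 122684404 to 122685930, downstream of the gene, with scores between 62.06 and 117.93. The libraries without these peaks had the shortest lists, with 54938 (iPSC), 65776 (MEF) and 70592 (OySyNyK D5) peaks. The others had 89497 or more, so list length gives this split. Stage does not, since OySyNyK D5 is an intermediate. With list lengths made equal, Nanog cover was 1.92% and 4.04% at D1 and D3 of OySyNyK. It was then 1.51%, 2.43% and 1.16% on D1, D3 and D5 under OSNK. The upstream peak was then kept at OSNK D3 and D5 only. The part of list length was not tested further.

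Peaks nearer to the gene were few. iPSC had 1 peak of score 63.99 from 1.4 to 0.8 kb before the central segment and 1 of score 72.26 near its end, at 122663201 to 122663533. Neither overlapped a peak of any other library. OySyNyK D3 had a peak of score 79.69 at 122658425 to 122659261 within the segment. The other 6 libraries had none in the segment. Both MEF peaks lay 16.6 to 19.3 kb upstream, scored 94.56 and 69.46, and overlapped peaks at D1 and at no later stage.

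Sox2, the high mobility group factor, lay in a window almost free of peaks. OySyNyK D3 and OSNK D5 had 1 peak each, of scores 58.30 and 64.82, iPSC had 2 peaks, of scores 52.38 and 114.41, and the other 5 libraries had none. All 4 peaks lay in the outer parts of the window, and the one at OySyNyK D3 crossed its edge. iPSC cover was 2.50% and MEF cover 0%, a difference of 2.50 percentage points (95% Newcombe interval -1.39 to 7.52). In the 6 intermediates cover was at most 1.38%, below the 2.18% to 3.72% of all sequence that these libraries covered. Low cover was common, however. The median genome tile of 55 kb was covered to 0.664% at OySyNyK D1, 1.12% at OSNK D1 and 0% in the other libraries. At least the Sox2 cover was found in 45.6% of tiles at OySyNyK D3, 35.8% at OSNK D5 and 18.5% in iPSC. No library had a peak over the gene.

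**Figure D3:**
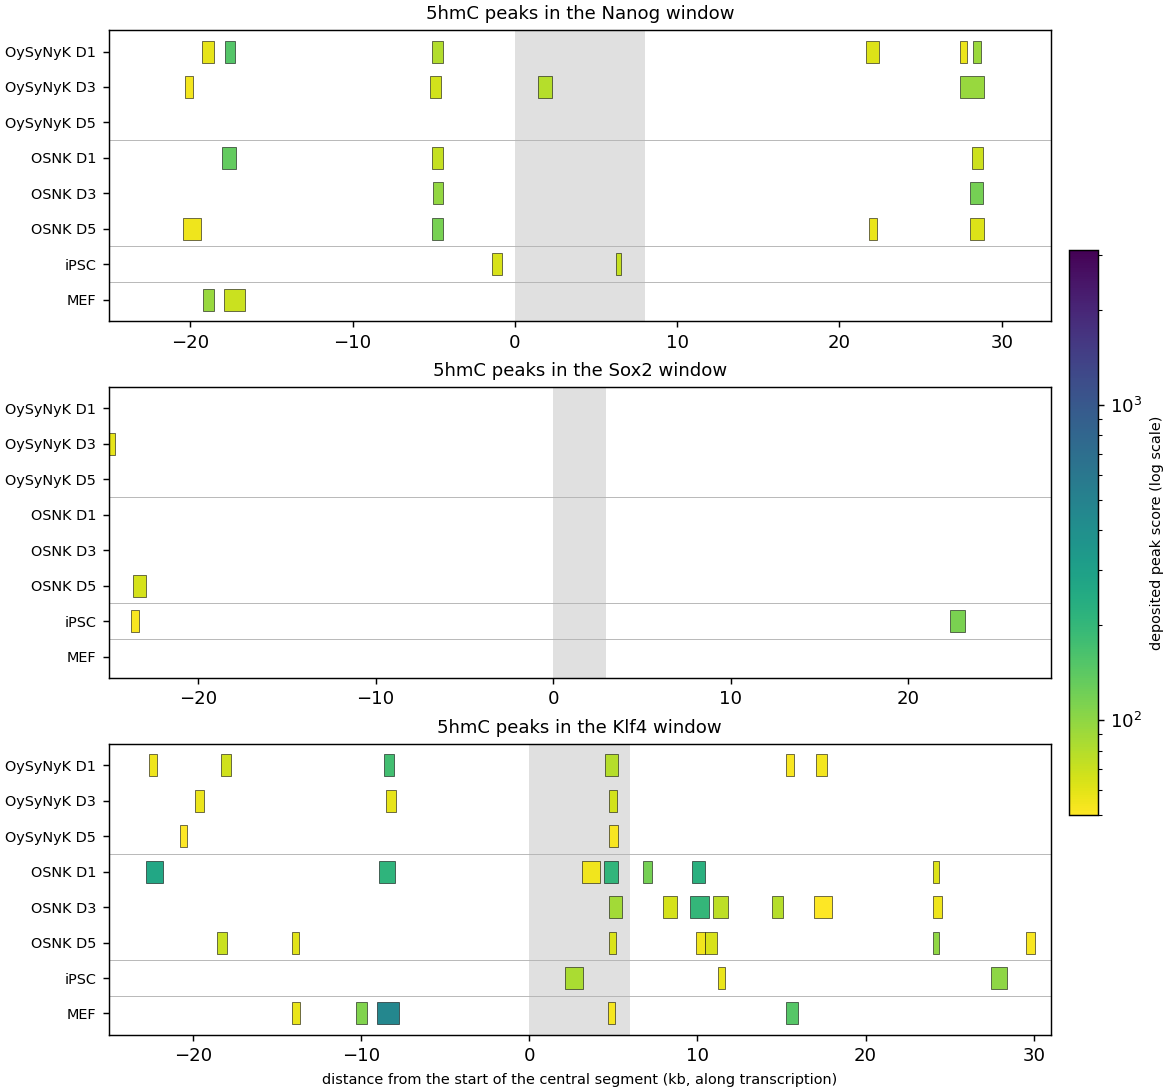
Peaks of the Nanog, Sox2 and Klf4 windows in each library (rows), by distance in kb from the start of the central segment (grey), with the deposited score as colour on a log scale. The Nanog panel shows the region 5.2 to 4.4 kb before the segment in 5 intermediates only, the Sox2 panel holds 4 peaks, and the Klf4 panel shows a peak near the end of the segment in every row but iPSC.

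At Klf4, peaks covered 6.37%, 2.84% and 1.62% of the window on D1, D3 and D5 under OySyNyK, 9.95%, 10.3% and 6.12% on D1, D3 and D5 under OSNK, 4.33% in iPSC and 6.40% in MEF. OySyNyK lay below OSNK on each day, and the difference OySyNyK minus OSNK was -3.57, -7.49 and -4.50 percentage points. Its 95% Newcombe interval lay below 0 at D3 (-14.7 to -0.866) and included 0 at D1 (-11.2 to 3.90) and D5 (-10.7 to 0.913). These intervals are too narrow, since bins under 1 peak are not independent. The D3 cover rests on 3 peaks with OySyNyK and 7 with OSNK, so the D3 interval is not read as a difference between the methods. The exact two-sided sign-flip test over the 3 days gave p = 0.25, the smallest it can give. With peaks of score 100 or more the differences were -6.34 (-12.8 to -0.910), -1.96 (-6.54 to 1.63) and 0, and with list lengths made equal the D5 difference was -0.630. Relative to the whole library, OySyNyK D5 had 0.741 times the general cover and OSNK D5 had 2.30 times.

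Among the Nanog, Sox2 and Klf4 windows, the Klf4 window held the highest-scoring MEF peak. It lay 7.7 to 9.1 kb upstream, at 55553724 to 55555068 of chromosome 4, and scored 457.48 in MEF. A peak there scored 175.06 and 58.48 at D1 and D3 of OySyNyK and 212.49 at OSNK D1. None was listed at D5 of OySyNyK, at D3 or D5 of OSNK or in iPSC. A second MEF peak, of score 109.71, lay 9.7 to 10.3 kb upstream and overlapped no other library. The highest OSNK score, 264.91, belonged to a D1 peak at 55567762 to 55568792, where OySyNyK D1 scored 55.35 and no other library had a peak.

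Downstream of Klf4, OSNK held peaks that OySyNyK did not. At 55534190 to 55536423 the highest scores were 226.50, 201.45 and 64.51 on D1, D3 and D5 under OSNK, and iPSC had a peak of 57.47. At 55521472 to 55521993 OSNK scored 62.28, 55.17 and 98.85 on the 3 days. Neither region had a peak in OySyNyK or MEF. Scores at 55521472 lay near the lowest listed score of 50 at D1 and D3. With list lengths made equal, this region was kept at OSNK D5 only, and the one at 55534190 at OSNK D1 and D3 only. Other regions went the other way. At 55530015 to 55530757 OySyNyK D1 (52.25) and MEF (148.52) had a peak and OSNK had none. Upstream, OySyNyK alone had peaks at 55565326 (D3, 56.62) and 55566370 (D5, 50.52).

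In the Klf4 gene, 7 libraries had a peak at 55540472 to 55541566, in the last part of the transcribed direction. It scored 79.72, 66.35 and 51.64 over the days of OySyNyK, 206.73, 88.42 and 62.83 over those of OSNK and 52.65 in MEF, and was absent from the iPSC list. The score was highest at D1 in both methods, and so was the median score of the whole list. That median was 95.8, 84.2 and 75.8 over the days of OySyNyK and 105, 91.4 and 81.3 over those of OSNK. Introduced Klf4 cDNA could add reads over exons in the intermediates, and its part was not tested. In the segment iPSC had a peak of score 84.60 at 55542810 to 55543872, overlapped by OSNK D1 alone. The highest iPSC score of the window, 100.49, belonged to a peak at 55517587 to 55518546 that no other library overlapped.

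**Figure D4:**
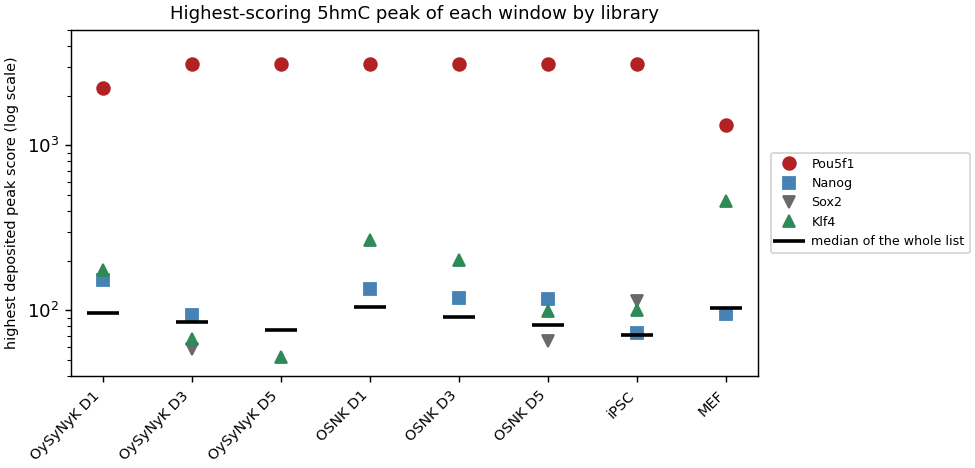
Highest deposited peak score of each window (points, log axis) in each library and the median score of the whole list (black bars). Pou5f1 lies between 1330 in MEF and 3100, while the other loci lie between 51.6 and 457; a missing point means no peak.

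Peaks were finally compared between the end states. Of the 17 iPSC peaks of the 4 loci, 13 had no MEF peak, which is 76.5% (exact 95% interval 50.1 to 93.2), against 78.3% of all iPSC peaks. Of the 12 MEF peaks, 8 had no iPSC peak, which is 66.7% (34.9 to 90.1), against 82.6% of all MEF peaks. The iPSC share is near that of the whole list. The MEF share is lower than that of its list, but its interval includes 82.6%. The 4 shared iPSC peaks and the 4 shared MEF peaks all lay in the Pou5f1 block, so the end states shared no peak outside it. Of the 39 merged regions of the loci, 18 were in neither iPSC nor MEF and 16 were in a single library. The same counts were not made over all merged regions of the genome, so they are not read as a trait of these loci.

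Of the 13 iPSC peaks without a MEF peak, 2, 4 and 4 were overlapped on D1, D3 and D5 under OySyNyK and 1, 1 and 4 on D1, D3 and D5 under OSNK. As shares these were 15.4%, 30.8% and 30.8% with OySyNyK, against 14.9%, 25.4% and 30.2% over all such iPSC peaks. With OSNK they were 7.69%, 7.69% and 30.8%, against 11.5%, 18.9% and 22.0% over all. OySyNyK thus differed from OSNK by 7.69, 23.1 and 0 percentage points on the 3 days, and the Newcombe intervals included 0 on each (-20.2 to 35.3, -8.29 to 50.7 and -32.4 to 32.4). All peaks overlapped with OySyNyK lay downstream of Pou5f1, where OSNK overlapped 3 at D5. The remaining OSNK overlaps were 1 Klf4 peak at D1, 1 Klf4 peak at D3 and 1 Sox2 peak at D5. The 2 iPSC peaks at Nanog were overlapped in no intermediate.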

How the data were processed

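5hmC-bearing genomic DNA was captured by chemical labelling and sequenced, with 1 library for each of 8 groups taken from the sample titles. The authors deposited 1 peak list for each library, with a score for each peak. Per the submitters' processing notes, Bowtie and MACS were used. Versions, settings and any control were not given in the sources used here. The builds in those notes are human (hg18 and NCBI36), while the lists hold mouse chromosomes, and the windows assume mm9. Depth is unknown.

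The members and the lists of alternatives were chosen with earlier results of these data known. Peaks overlapping a window by at least 1 bp were taken, and covered bases were cut at the window's ends. Regions are peaks of all lists merged where they overlap. Intervals are exact (Clopper-Pearson) for shares of peaks and Wilson or Newcombe for cover, counting bins of 500 bp as independent, at 95%. They cover counting error only, and those for cover are too narrow, since bins under 1 peak are not independent. Methods were paired by day in an exact two-sided sign-flip test over the 3 days, which gave p = 1.00 for Nanog and Sox2. Python 3.11.15, numpy 2.4.6, scipy 1.17.1 and matplotlib 3.10.9 were used. Overlap counts were checked on simulated peaks and against bedtools 2.31.1, with the same count in all 56 ordered pairs of libraries. All 4 genes were named, with their merged regions in the segment, those in most libraries, the highest-scoring ones and those with iPSC peaks absent from MEF. Some further regions outside these rules were also named. Other pluripotency genes were not analysed here, since no mm9 annotation was used.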

Additional observations from a re-analysis of the deposited data

Results flagged for a closer look

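The change of Nanog cover from D1 to D5 had opposite signs in the methods. It was -6.58 percentage points with OySyNyK and 1.56 with OSNK. Each value rests on 1 library per day, and the difference was not tested. The 6 peaks of the window at OySyNyK D1 had no counterpart at OySyNyK D5, where the window held no peak. With scores of 100 or more the changes were -1.02 and -0.353, with list lengths made equal -1.92 and -0.353, and with windows of 10 kb on each side -2.32 and -0.0393, so in these settings cover was lower at D5 in both methods. With peaks of 500 bp the signs were opposite again (-5.17 and 0.862). At Pou5f1 the same change was 11.1 points with OySyNyK and 12.1 with OSNK, and at Klf4 it was -4.76 and -3.83.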

How the results depend on the processing

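Values were recomputed requiring 50% of a peak to be overlapped, requiring scores of 100 or more, taking only the top 54938 peaks by score from each library, setting all peaks to 500 bp and using windows with 10 kb on each side. Leaving out the Pou5f1 block was added after seeing the data. Of 270 recomputed values, 194 stayed within the interval of the reported value, 69 moved beyond it and 7 changed sign. With scores of 100 or more, the Nanog differences OySyNyK minus OSNK were -0.491 points at D1 and -1.35 at D3, no iPSC-gained peak was overlapped by OSNK on any day (0%, of 6 peaks), and the methods differed by 33.3 points at D5. With list lengths made equal, OSNK overlapped 0% at D1 and D3, and when 50% had to be overlapped it overlapped 0% at D1. With windows of 10 kb, which leave out the downstream Pou5f1 regions, OySyNyK overlapped 0% of 5 iPSC-gained peaks on each day and OSNK 0% at D5, and the methods differed by -20.0 points at D1 and D3. There, Nanog cover differed by 3.30 points between iPSC and MEF and by -0.121 between OySyNyK and OSNK at D1, and Pou5f1 cover by -8.94 between OySyNyK and OSNK at D3. With peaks of 500 bp, and without the Pou5f1 block, 100% of the iPSC peaks had no MEF peak and 100% of the MEF peaks no iPSC peak. At Klf4 the interval of the D3 difference between methods included 0 with scores of 100 or more and with peaks of 500 bp (-3.57, -9.91 to 2.28), and that of D1 lay below 0 with scores of 100 or more and with equal lengths. Each group has 1 library, so leaving out replicates was not possible, and pairing by day over 3 days cannot reach p below 0.25. The cover of the whole Pou5f1 window at 500 bp per peak was 4.55% to 10.9%, since its broad peaks count little there. Depth is unknown, and 5hmC below the calling threshold would not appear in a list.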
